A study of Mus musculus with 6 samples.

Results

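The genes described here are the immunoglobulin variable region (V) genes, taken as every gene of the deposited single-cell table whose symbol starts with Ighv, Igkv or Iglv. This rule gave 91 of the 16623 genes in the table, namely 37 heavy chain (Ighv), 51 kappa light chain (Igkv) and 3 lambda light chain (Iglv) genes. They were measured in 11610 liver cells from 3 wild-type (WT) and 3 SIRT7-/- mice of 5 to 6 months of age. SIRT7-/- mice lack the histone deacetylase SIRT7 in the whole body and develop fatty liver disease without a special diet, and the sex of the animals is not given in the labels. From each liver, hepatocytes and non-parenchymal cells were isolated by collagenase perfusion, mixed in equal numbers and profiled with 10x Genomics Chromium 3′ single-cell RNA sequencing, with 1 library per mouse.

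An antibody is built from a heavy chain and a light chain, and the light chain is either kappa or lambda. In each developing B cell, 1 V gene segment of a chain is joined to short joining segments, and in the heavy chain also to a diversity segment, and the product is spliced to a constant region gene. A B cell and all of its descendants therefore normally carry 1 heavy and 1 light V gene. Plasma cells are the antibody-secreting end stage of this line and devote much of their RNA to immunoglobulin, with Igha marking IgA, Ighm IgM and the Ighg genes IgG. Recurrence of the same V genes in many plasma cells of an animal is the usual sign looked for when a B cell family has expanded, although the joined region itself, which proves common descent, was not read here.

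The heavy, kappa and lambda genes of the list lie in 3 clusters, on chromosomes 12, 6 and 16 of GRCm38 (mm10). All 91 symbols were found in the GENCODE M21 annotation of that build. The annotation holds 216 genes of the type IG_V_gene, and 87 of them are in the table, made up of 34 of 113 heavy chain, 50 of 100 kappa and 3 of 3 lambda genes. The other 129 were not analysed here, so a cell that used one of them could not be recognised. The paper left out genes found in fewer than 3 cells, and how many of the 129 this removed was not tested. V genes resemble each other, and 76 of the 91 members shared at least one stretch of 50 bases with another V gene transcript.

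The results turn on a few of these genes, whose 3′ coding ends (120 bases, GENCODE M21, 5′ to 3′ on the gene's strand) are shown first. Igkv7-33 (chr6:70058632-70058751, minus strand) and Igkv14-111 (chr6:68256750-68256869, plus strand) were the kappa genes that recurred in 1 mouse. Capitals mark the last cysteine codon in frame, the conserved cysteine at the start of the third antigen-contacting loop. All these stretches lie in the last coding exon of their gene.
Igkv7-33: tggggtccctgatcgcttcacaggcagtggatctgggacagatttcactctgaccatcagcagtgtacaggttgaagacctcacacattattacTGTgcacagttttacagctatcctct
Igkv14-111: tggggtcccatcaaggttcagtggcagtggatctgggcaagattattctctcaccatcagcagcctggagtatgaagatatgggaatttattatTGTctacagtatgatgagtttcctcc
These ends were identical at 82 of 120 positions, and Igkv14-111 shared no 50-base stretch with any other V gene. For Igkv7-33 the shared part was 0.633% of its 50-base windows.

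Ighv2-2 (chr12:113588267-113588386, minus strand) was the heavy chain gene found beside them, and Ighv2-5 (chr12:113685482-113685601, minus strand) is a gene of the same subfamily. Capitals mark the 7 positions of the 120 at which this pair differs, and over all 347 coding bases compared they differ at 40.
Ighv2-2: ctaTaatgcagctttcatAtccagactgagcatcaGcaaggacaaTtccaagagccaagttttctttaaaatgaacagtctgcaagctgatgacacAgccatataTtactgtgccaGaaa
Ighv2-5: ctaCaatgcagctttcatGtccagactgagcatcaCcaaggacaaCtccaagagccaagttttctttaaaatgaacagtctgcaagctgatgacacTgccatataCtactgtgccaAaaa
In Ighv2-2, 55.4% of the 50-base windows were shared with another V gene, most often Ighv2-4 (41.9%). Its counts and those of its relatives are therefore uncertain, by an amount that was not tested.

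Iglv1 (chr16:19085017-19085136, minus strand) was the most abundant V gene of the table. Its closest relative is Iglv2 (chr16:19260401-19260520, minus strand), and capitals mark the 4 positions of the 120 at which they differ, against 46 of all 348 coding bases compared.
Iglv1: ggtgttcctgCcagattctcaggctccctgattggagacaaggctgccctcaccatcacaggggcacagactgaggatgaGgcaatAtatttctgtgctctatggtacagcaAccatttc
Iglv2: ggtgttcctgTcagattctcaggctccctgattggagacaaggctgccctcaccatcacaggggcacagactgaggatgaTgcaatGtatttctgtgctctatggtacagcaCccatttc
Igkv and Iglv1 sequences shared no 50-base window with each other, since all shared windows of Iglv1 (22.2% of them) lay in Iglv2.

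V genes were described in plasma cells and B cells. A plasma cell was a cell with at least 1 unique molecular identifier (UMI, which counts 1 captured RNA molecule) of Jchain and Mzb1, and of Derl3 or Eaf2. This gave 342 plasma cells, namely 12, 18 and 100 in WT mice 1, 2 and 3, and 87, 111 and 14 in SIRT7-/- mice 1, 2 and 3. Their median depth lay between 3174 and 13191 UMIs per cell by mouse. Xbp1, the transcription factor of secretory cells, was found in 92.4% of them, the plasma cell surface proteoglycan gene Sdc1 in 40.6% and the survival receptor gene Tnfrsf17 in 50%, against 36.4%, 3.04% and 0.345% of macrophages. Of the B cell genes, the transcription factor Pax5 was found in 1.46% of plasma cells, Bank1 in 6.73%, Fcer2a in 0.877% and Cr2 in 0.585%. Others were more common in plasma cells, with Ms4a1 in 16.7%, Ebf1 in 26.6%, H2-Aa in 28.4%, Cd79b in 60.2%, Cd79a in 88.3% and Cd74 in 98.2%. B cells were the cells with at least 2 genes of a short B cell marker list, which included Ms4a1, Cd79a and Cd79b, that were not plasma cells, and numbered 294, of which SIRT7-/- mouse 3 gave 2. Pax5 was found in 17.7% of them and the B cell transcription factor Ebf1 in 58.8%. Bank1 was found in 35.4% of B cells and in 46.4% of macrophages. Macrophages with Clec4f and C1qa, 3191 cells in all, served as the background, since they do not make antibody.

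Sirt7 averaged between 0.512 and 0.718 UMIs per 10000 UMIs (CP10K) over all cells of the WT mice and between 0.0814 and 0.139 in the SIRT7-/- mice, and plasma cells held 9 Sirt7 UMIs of 890315 in WT and 3 of 941621 in SIRT7-/- mice. Total depth per mouse lay between 2511947 and 11069411 UMIs. Libraries shared 13 cell barcodes, in 26 cells, none of which was a plasma or B cell. Neutrophil genes (S100a8, S100a9 and Retnlg) summed to 63.6 CP10K in plasma cells of SIRT7-/- mouse 1 and 16.4 in those of mouse 2, against at most 0.184 in the other 4 mice. S100a8 and S100a9 were found in 26.4% and 21.8% of the plasma cells of SIRT7-/- mouse 1. In mouse 2 they were found in 1.80% and 2.70%, so its value came from few cells. Hepatocyte genes (Alb, Apoa1, Ttr and Serpina1a) were found in plasma cells of all mice. They summed to 24.0, 13.3 and 13.3 CP10K in WT mice 1, 2 and 3 and 15.5, 3.55 and 31.6 in SIRT7-/- mice 1, 2 and 3. The part of neutrophil and hepatocyte transcripts in the results below was not tested.

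V gene RNA was concentrated in plasma cells. Of 5935 V gene UMIs in the whole table, 83.1% were in the 342 plasma cells. By mouse, V genes made up 0.191%, 0.287% and 0.188% of the UMIs of plasma cells in WT mice 1, 2 and 3, and 0.249%, 0.401% and 0.206% in SIRT7-/- mice 1, 2 and 3. The genotypes overlapped, with means of 0.222% ± 0.0565 in WT and 0.286% ± 0.102 in SIRT7-/- mice (SD, n = 3 each, exact two-sided permutation test p = 0.5). SIRT7-/- mouse 2 carried most of the difference, which was 0.0636 percentage points with it, 0.00586 without it and 0.0241 without its 50 cells described below. Those 50 cells were chosen by UMIs of V genes, so leaving them out lowers the share in part by that choice. In macrophages the V share was at most 0.00024% in any mouse, with 17 V UMIs in 10 of the 3191 cells. Plasma cells exceeded macrophages in 6 of 6 mice, by 0.254 percentage points ± 0.0817 (SD, exact sign-flip test p = 0.031, the smallest that 6 mice can give). As a percentage of V and constant region UMIs together, plasma cells were higher in 4 of the 5 mice whose macrophages held any such UMI (exact sign-flip p = 0.125), with 0 V UMIs of 8 to 71 such UMIs in the macrophages of 3 of them. In plasma cells 95.6% of cells had a V gene UMI (exact 95% binomial interval 92.9% to 97.5%), against 0.313% of macrophages (0.15% to 0.576%), at median depths of 4376.5 and 2313 UMIs. Intervals and upper limits here and below cover counting error only.

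**Figure D1:**
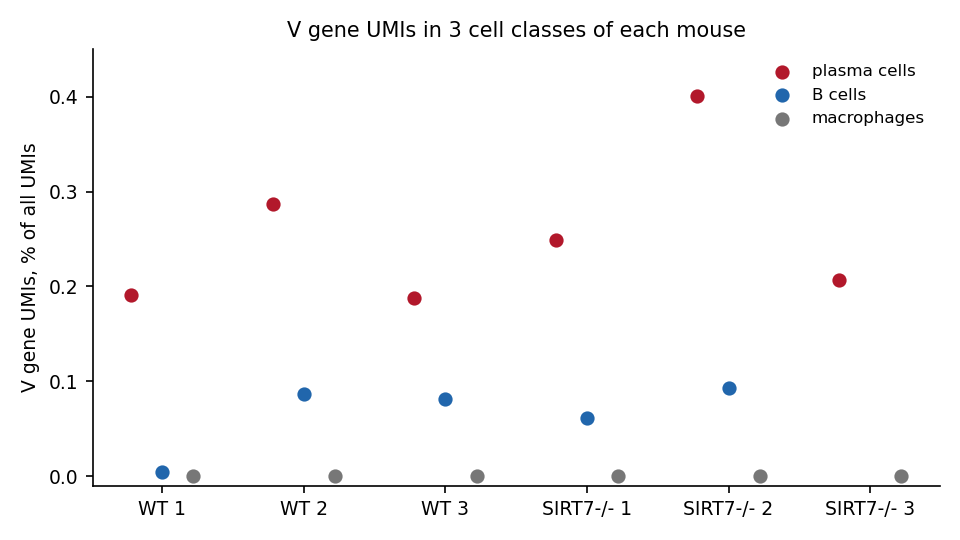
V gene UMIs as a percentage of all UMIs (vertical axis) in plasma cells, B cells and macrophages of each mouse (horizontal axis), with 1 point per mouse and class. Plasma cells lie between 0.188% and 0.401%, B cells between 0.00437% and 0.0931% and macrophages near 0, and no point is drawn for the 2 B cells of SIRT7-/- mouse 3.

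The constant region genes, by comparison, made up 43.6% to 60.1% of all plasma cell UMIs. V genes are thus seen as rare molecules beside a very large number of constant region molecules. The 3′ kit captures the end of a transcript, which lies in the constant region, and UMIs were not scaled to gene length. Annotated V transcripts were between 287 and 501 bases long. In the 342 plasma cells, the V genes gave 374 heavy chain, 2454 kappa and 2103 lambda UMIs, and 89 of the 91 members had at least 1 UMI. The exceptions were Igkv1-88 and Igkv4-74. Of the members, 49 had 10 UMIs or more, 18 were seen in the plasma cells of 1 mouse, and 3, namely Iglv1, Iglv3 and Igkv3-2, were seen in all 6 mice.

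B cells held far fewer V molecules per cell. V genes made up 0.00437%, 0.0864% and 0.0813% of B cell UMIs in WT mice 1, 2 and 3, and 0.0613% and 0.0931% in SIRT7-/- mice 1 and 2. Plasma cells were higher than B cells of the same animal in 5 of 5 mice, by 0.198 percentage points ± 0.0720 (SD, exact sign-flip test p = 0.0625, the smallest that 5 mice can give). As a percentage of V and constant region UMIs together, plasma cells were higher in 3 of 5 mice, by 0.0661 percentage points (exact sign-flip p = 0.375), so the direction in all 5 was not kept on that scale. SIRT7-/- mouse 3 was left out for its 2 B cells, which held no V gene UMI. The B cell signal was unevenly spread, with 58 B cells that had 100 or more constant region UMIs holding 554 of the 570 V UMIs of the class. The other 236 B cells held 16 V UMIs in 13 cells. Without the 58 cells, plasma cells exceeded B cells by 0.259 percentage points.

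Since deeper cells can show more genes, the number of different V genes per cell was compared after thinning each to 1000 UMIs (the expected number of V genes with a UMI at that depth). Without thinning, a plasma cell had a median of 3 V genes and at most 8, 15 of the 342 had none and 280 had 2 or more. At 1000 UMIs, plasma cells averaged 1.22, 1.48 and 0.988 V genes in WT mice 1, 2 and 3, and 1.35, 1.94 and 1.12 in SIRT7-/- mice 1, 2 and 3. SIRT7-/- mouse 2 had the most V genes per cell, and the genotypes overlapped (WT 1.23 ± 0.248, SIRT7-/- 1.47 ± 0.423, SD, n = 3 each, exact permutation p = 0.5). Without SIRT7-/- mouse 2 the difference went from 0.244 to 0.00921 genes. Without thinning, the sign of the difference turned, to 0.124 genes fewer in SIRT7-/- mice (exact permutation p = 0.8). The B cells of the 5 mice averaged 0.0411 to 0.501 V genes at the same depth, with 36 of 294 cells too shallow to thin. Plasma cells had more in 5 of 5 mice, by 1.10 genes ± 0.367 (SD, exact sign-flip p = 0.0625).

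Within the kappa family, a plasma cell usually showed a single dominant gene. There were 166 plasma cells with at least 5 Igkv UMIs, and in them the highest kappa gene took 88.3% ± 16.9 of the kappa V UMIs (SD over cells) with a median of 100%. By mouse this mean was 86.1%, 93.7% and 91.8% in WT mice 1, 2 and 3, and 95.8%, 81.7% and 96.8% in SIRT7-/- mice 1, 2 and 3. SIRT7-/- mouse 2 was the lowest of the 6, and 12 of its cells had 5 or more UMIs of each of at least 2 kappa genes, against 3 cells in the other mice together. The genotypes did not differ beyond their spread (WT 90.5% ± 3.92, SIRT7-/- 91.5% ± 8.45, SD, n = 3 each, exact permutation p = 0.9). When kappa and lambda V genes were pooled as light chain genes, the top share dropped to 66.1% ± 4.90 in WT and 68.5% ± 4.63 in SIRT7-/- mice (SD, n = 3 each, exact permutation p = 0.6). Iglv1, described below, was present in most of these cells.

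Heavy chain V molecules were too few for the same description. A heavy V gene UMI was present in 158 of the 342 plasma cells, but 5 or more were found in 21 cells, of which 5 and 11 were in SIRT7-/- mice 1 and 2 and 2 and 3 in WT mice 2 and 3. Since no WT mouse had 5 such cells, the heavy chain top share and the heavy chain repertoire could not be compared between genotypes. With a minimum of 2 UMIs, 91 cells remained, and 54 of them showed a single heavy gene. In these, 70 cells could be given a dominant heavy gene, with 25 different genes in all.

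A heavy and a kappa V gene recurred together in SIRT7-/- mouse 2. Igkv7-33 had at least 1 UMI in 42 of the 111 plasma cells of this mouse (37.8%, exact 95% binomial interval 28.8% to 47.5%). It had none in the 231 plasma cells of the other 5 mice, which allows a share of up to 1.30%. Ighv2-2 was found in 40 of the 111 cells (36.0%, 27.1% to 45.7%) and in 1 of the 231, a cell of WT mouse 2 with 2 UMIs. Igkv14-111, named after its values were seen, was found in 54 of the 111 cells, and in 1, 0 and 3 cells of WT mice 1, 2 and 3 and 2 and 0 cells of SIRT7-/- mice 1 and 3. The 3 genes are thus found in many cells of a single animal and are at or near 0 in the plasma cells of the others.

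These genes also occurred in the same cells. Of the 42 cells with Igkv7-33, 32 had an Ighv2-2 UMI and 39 an Igkv14-111 UMI, and 30 cells had all 3 genes. Cells of mouse 2 with Ighv2-2 or Igkv7-33 numbered 50 (45.0% of its plasma cells, 35.6% to 54.8%), and 47 of these 50 also had Igkv14-111, against 7 of its remaining 61 plasma cells. Ighv2-5 followed the same cells, with 21 of its 22 positive cells in mouse 2 among the 50. Of the 50-base windows of Ighv2-5, 23.8% are also in Ighv2-2, and whether reads of one were counted for the other was not tested. No cell of the 5 other mice held both Ighv2-2 and Igkv7-33.

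**Figure D2:**
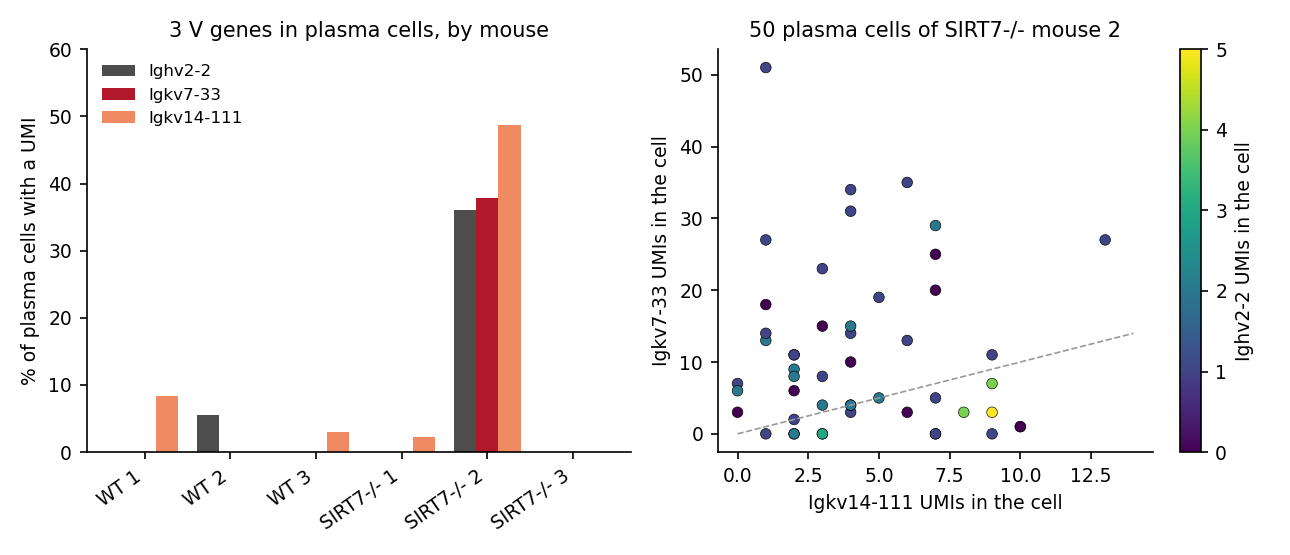
Left, percentage of plasma cells with at least 1 UMI of Ighv2-2, Igkv7-33 or Igkv14-111 (vertical axis) in each mouse (horizontal axis); the bars of SIRT7-/- mouse 2 reach 36.0%, 37.8% and 48.6%, and those of the other mice at most 8.33%. Right, UMIs of Igkv14-111 (horizontal axis) and Igkv7-33 (vertical axis) in each of the 50 plasma cells of SIRT7-/- mouse 2 with Ighv2-2 or Igkv7-33, coloured by Ighv2-2 UMIs; the dashed line marks equal counts, and 30 cells lie above it and 16 below it.

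Both kappa genes were present at unequal levels from cell to cell. In the 50 cells, Igkv7-33 ranged from 0 to 51 UMIs with a median of 7.5, and Igkv14-111 from 0 to 13 with a median of 4. Igkv7-33 was the higher of the pair in 30 cells, Igkv14-111 in 16, and they were equal in 4. The 30 cells had a median of 14 Igkv7-33 and 3 Igkv14-111 UMIs, and the 16 cells a median of 0.5 and 7. Depth was alike, with medians of 4378 and 3966 UMIs per cell. Ighv2-2 was present in 23 of the 30 and in 14 of the 16 cells, at 2.29 and 4.63 UMIs per 10000. The 50 cells were chosen by Ighv2-2 or Igkv7-33, and 8 without Igkv7-33 entered through Ighv2-2 alone. These 8 were all among the 16, so the Ighv2-2 difference was in part fixed by the choice. These are cells of 1 animal, so the values are a description of that animal.

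The same genes appeared outside the plasma cell class in the same mouse. Among the 55 B cells of SIRT7-/- mouse 2, 5 had Ighv2-2, 2 had Igkv7-33 and 5 had Igkv14-111, and among its 1492 cells outside the 3 classes the counts were 4, 7 and 8. In the other 5 mice, none of the 239 B cells (up to 1.26% allowed by a count of 0) and none of the 6291 cells outside the 3 classes held any of the 3. None of the 3191 macrophages did so either, although 521 of these were from mouse 2. Within this mouse the genes were thus found in plasma cells, B cells and cells of no class, and not in macrophages.

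The isotype of these cells, which was not used to choose them, was uniform. All 50 cells had Igha as their highest heavy chain constant gene, and Igha made up 98.7% of their heavy chain constant UMIs. In the remaining 61 plasma cells of the mouse, 48 (78.7%) were led by Igha, with the others led by Ighg1 (4), Ighg2c (4), Ighg2b (3), Ighg3 (1) or Ighe (1). In the other mice Igha led in 7 of 12, 5 of 18 and 49 of 100 cells of WT mice 1, 2 and 3, and in 65 of 87 and 10 of 14 cells of SIRT7-/- mice 1 and 3. IgM-led cells numbered 3, 9 and 29 in the WT mice and 4, 0 and 0 in SIRT7-/- mice 1, 2 and 3. The 50 cells and the other 61 had similar depth (medians of 4172.5 and 4073 UMIs). Their V gene UMIs had medians of 22.5 and 8 per cell. Since the 50 were chosen by having UMIs of V genes, this difference was in part fixed by the choice.

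The repertoire spread per mouse was measured as the chance that 2 plasma cells drawn from the same mouse have the same dominant kappa gene (at least 5 Igkv UMIs, over 50% of them from 1 gene). In 157 cells with such a gene, 32 of the 51 kappa genes occurred. The chance was 4.76%, 2.86% and 8.06% in WT mice 1, 2 and 3, from 7, 15 and 32 cells, and 4.60%, 25.7% and 5.56% in SIRT7-/- mice 1, 2 and 3, from 30, 64 and 9 cells. Mouse 2 stood apart and the other 5 lay close together. The genotype means were 5.23% ± 2.63 in WT and 11.97% ± 11.9 in SIRT7-/- mice (SD, n = 3 each, exact permutation p = 0.6). Without SIRT7-/- mouse 2 the difference was -0.151 percentage points (exact permutation p = 0.9), so that this mouse decided its direction. Between different mice, the chance lay between 1.12% and 7.29% over the 15 pairs of mice.

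**Figure D3:**
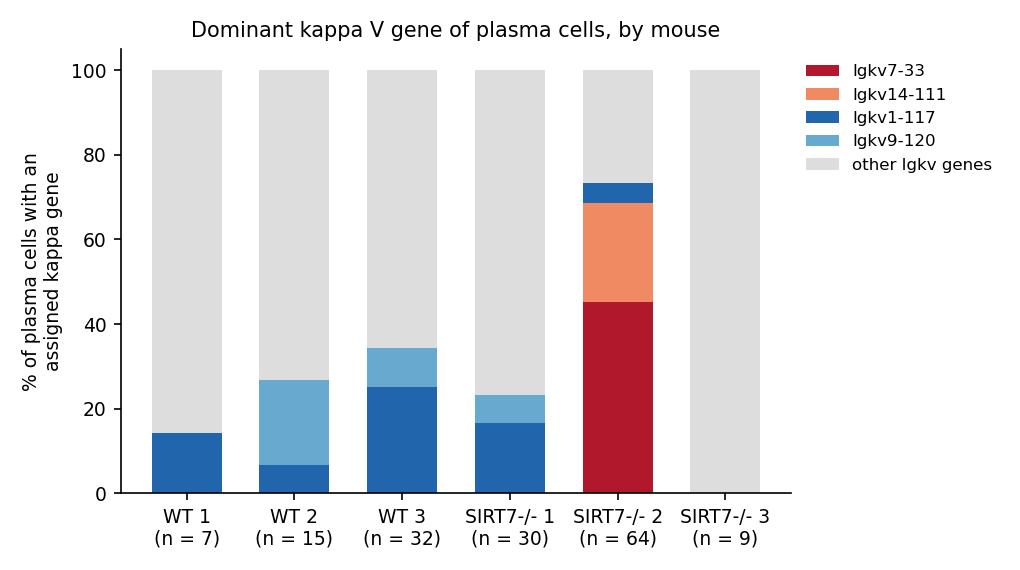
Percentage of plasma cells with an assigned kappa gene (vertical axis) that were assigned to Igkv7-33, Igkv14-111, Igkv1-117, Igkv9-120 or another Igkv gene, for each mouse (horizontal axis, with the number of assigned cells). In SIRT7-/- mouse 2, Igkv7-33 takes 45.3% and Igkv14-111 23.4%, and in the other mice neither gene is assigned to any cell.

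In the other mice no kappa gene reached the share of Igkv7-33. Igkv1-117, which shares 49.9% of its 50-base windows with its closest relative, was dominant in 1, 1 and 8 cells of WT mice 1, 2 and 3 and in 5, 3 and 0 cells of SIRT7-/- mice 1, 2 and 3, and its largest share was 25%, in WT mouse 3. Igkv6-32, named after its values were seen, was dominant in 2 of 7 cells of WT mouse 1 (28.6%). Igkv9-120 was dominant in 3 of 15 cells of WT mouse 2, 3 of 32 of WT mouse 3 and 2 of 30 of SIRT7-/- mouse 1. It was also the V gene with most macrophage UMIs, at 7, all in 1 cell of SIRT7-/- mouse 1. All 3 Igkv9-120 cells of WT mouse 2 and of WT mouse 3 were led by Ighm, against 9 of 18 and 29 of 100 among all their plasma cells. Igha led all 5 Igkv1-117 cells of SIRT7-/- mouse 1, against 65 of all its 87 plasma cells. It led 5 of the 8 Igkv1-117 cells of WT mouse 3 and all 3 of SIRT7-/- mouse 2. Of the 5 cells of SIRT7-/- mouse 1, 3 had a UMI of Ighv5-6, as did 3 of the other 82 plasma cells of that mouse. Igkv6-15, Igkv12-46, Igkv16-104, Igkv8-21, Igkv10-96 and Igkv12-41 were dominant in 2 to 7 cells each over all mice.

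Among heavy chain genes with at least 2 UMIs per cell, Ighv2-2 was dominant in 16 cells of SIRT7-/- mouse 2 and 1 of WT mouse 2. Ighv5-17 followed with 7 cells, from SIRT7-/- mice 1, 2 and 3 (3, 3 and 1 cells). Ighv1-9 and Ighv5-6 were dominant in 4 cells each, Ighv14-1 and Ighv1-18 in 3 each, Ighv4-1 in 2 and Ighv3-2 in 1. The 3 Ighv1-18 cells were all from SIRT7-/- mouse 1. Cells given a dominant heavy gene numbered 1, 5 and 3 in WT mice 1, 2 and 3 and 18, 41 and 2 in SIRT7-/- mice 1, 2 and 3. With so few WT cells, a heavy gene dominant only in SIRT7-/- mice cannot be tied to the genotype. In mouse 2, 3 of the cells without Ighv2-2 or Igkv7-33 combined Ighv3-8 with Igkv14-111, both named after their values were seen. A dominant heavy gene (2 UMIs or more) and a dominant kappa gene were both known in 25 cells of mouse 2, of which 7 combined Ighv2-2 with Igkv7-33 and 4 combined Ighv2-2 with Igkv14-111. In the other mice both were known in 6, 1, 3 and 1 cells of SIRT7-/- mice 1 and 3 and WT mice 2 and 3, with at most 2 cells sharing a combination.

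The amount of V RNA beside constant region RNA differed between libraries for both chains, and fewer V transcripts cannot be told apart from less complete capture of them. For each 1000 UMIs of the heavy chain constant genes there were 0.414, 0.823 and 0.418 Ighv UMIs in WT mice 1, 2 and 3, and 3.20, 2.92 and 0.426 in SIRT7-/- mice 1, 2 and 3. SIRT7-/- mice 1 and 2 were high, and mouse 3 lay among the WT mice (WT 0.552 ± 0.235, SIRT7-/- 2.18 ± 1.53, SD, n = 3 each, exact permutation p = 0.2). In Igha-led cells alone the values were 0.188, 0.456 and 0.642 in the WT mice and 2.95, 2.95 and 0.483 in the SIRT7-/- mice. The same 2 mice had the highest neutrophil gene sums given above, in mouse 2 from few cells. The part of these transcripts in the heavy chain values was not tested. For kappa, the values were 1.6, 2.35 and 2.81 Igkv UMIs per 1000 Igkc UMIs in the WT mice and 3.25, 8.08 and 2.17 in the SIRT7-/- mice (WT 2.25 ± 0.613, SIRT7-/- 4.50 ± 3.15, SD, n = 3 each, exact permutation p = 0.3), and the difference of 2.25 was 0.454 without SIRT7-/- mouse 2.

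**Figure D4:**
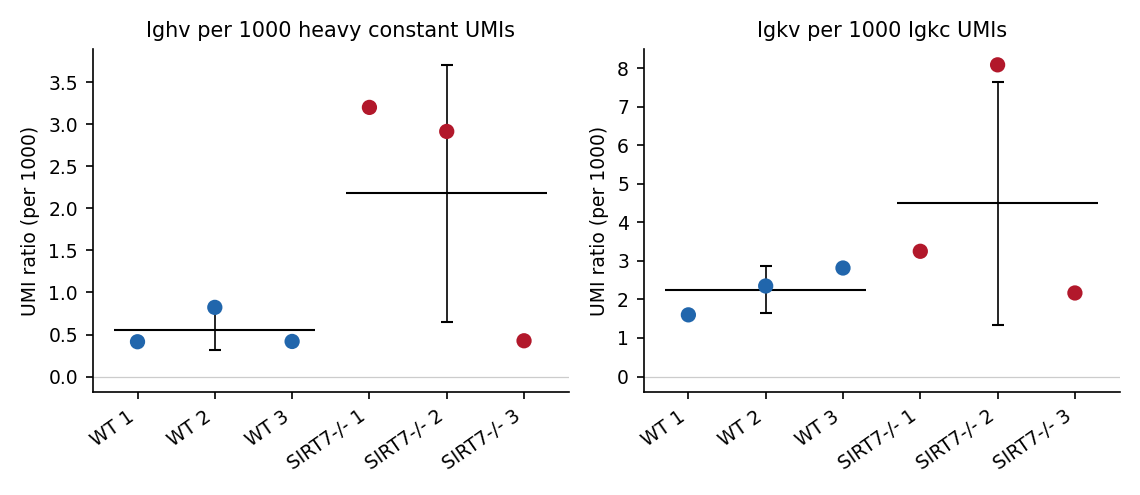
UMIs of V genes per 1000 UMIs of the constant genes of the same chain in plasma cells of each mouse (points), with the mean (horizontal line) and SD (error bar) of each genotype. Left, the heavy chain, where SIRT7-/- mice 1 and 2 are at 3.20 and 2.92 and the other 4 mice between 0.414 and 0.823. Right, kappa, where SIRT7-/- mouse 2 is at 8.08 and the other 5 mice between 1.6 and 3.25.

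Iglv1 had the most UMIs of all members. With 1668 UMIs it gave 33.8% of all plasma cell V UMIs, and it was found in 12 of 12, 17 of 18 and 62 of 100 plasma cells of WT mice 1, 2 and 3 and in 51 of 87, 86 of 111 and 11 of 14 of SIRT7-/- mice 1, 2 and 3. Over all mice this was 69.9% of plasma cells, against 0.0940% of macrophages. Its mean level was 10.7, 12.5 and 6.09 CP10K in plasma cells of WT mice 1, 2 and 3 and 6.99, 10.0 and 10.3 in SIRT7-/- mice 1, 2 and 3. The genotypes overlapped, with a difference of -0.06 ± 0.29 (SE) on the log2(CP10K + 0.05) scale (limma adjusted p = 0.998), whose sign turned when WT mouse 1 or 2 or SIRT7-/- mouse 1 was left out. Iglv3 was found in 171 plasma cells with 422 UMIs and Iglv2 in 11 with 13.

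Most of the cells with Iglv1 were, by their constant region, kappa cells. Igkc exceeded the lambda constant genes in 335 of the 342 plasma cells. Iglv1 was found in 72.8% of the 169 cells whose lambda constant share was under 1% of light chain constant UMIs, and in 5 of the 7 cells where lambda constant genes exceeded Igkc. Those 7 cells held 25 Iglv UMIs and no Igkv UMI, against 1137 Iglv and 1426 Igkv UMIs in the 169 cells. Of the 157 cells with a dominant kappa gene, 131 also had Iglv1. In 69 cells Iglv1 was the dominant light chain V gene (at least 5 light chain V UMIs, over 50% of them from Iglv1). Of these 69, 68 had more Igkc than lambda constant UMIs, with medians of 2067 and 19, and 60 also had an Igkv UMI. Iglv1 UMIs were thus found mostly in cells with kappa constant RNA, and their source was not tested.

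**Figure D5:**
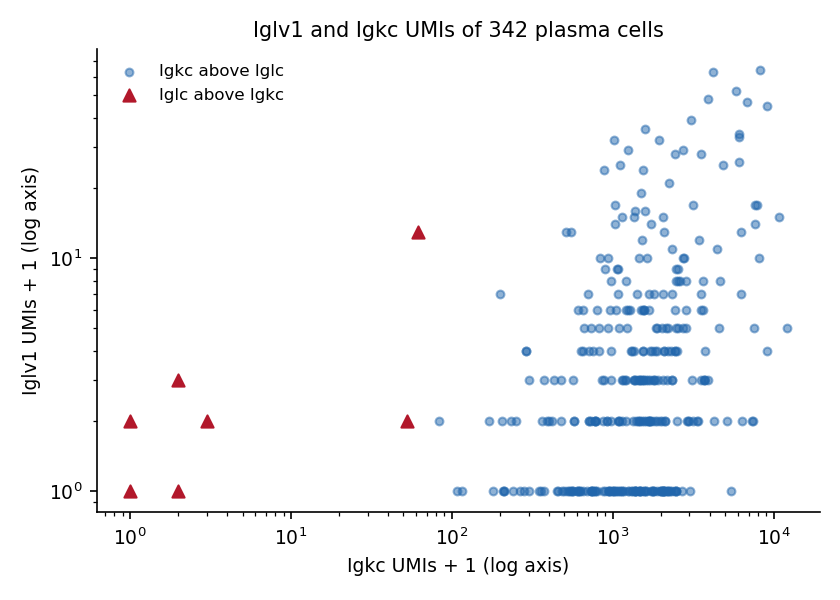
Igkc UMIs plus 1 (horizontal log axis) and Iglv1 UMIs plus 1 (vertical log axis) in each of the 342 plasma cells, with the 7 cells whose lambda constant UMIs exceed Igkc drawn as triangles. Cells with up to 63 Iglv1 UMIs lie at high Igkc counts, and the triangles hold at most 12.

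The share of light chain assignments that went to a lambda V gene was 75.0%, 43.8% and 44.4% in WT mice 1, 2 and 3, and 39.5%, 28.4% and 38.5% in SIRT7-/- mice 1, 2 and 3. Each WT mouse was above each SIRT7-/- mouse, by 19.0 percentage points on average (WT 54.4% ± 17.8, SIRT7-/- 35.4% ± 6.15, SD, n = 3 each, exact permutation p = 0.1, the smallest that 3 against 3 can give). The difference turned to 3.97 percentage points higher in SIRT7-/- mice (exact permutation p = 0.7, 2 WT mice) when the assigned gene had to exceed 80% of the light chain V UMIs. WT mouse 1 gave 8 assigned cells, and without it SIRT7-/- mice were lower by a difference of -8.67 (exact permutation p = 0.2). Under a stricter plasma rule that asked for all 4 genes the difference was -7.66 (exact permutation p = 0.7), and the exact permutation p was 0.4 with a minimum of 2 or of 10 light chain V UMIs. Given the cells in which Iglv1 was found, this share describes V gene UMIs and not antibody type. The chance that 2 cells share a dominant light chain gene, with kappa and lambda pooled, was 53.6%, 18.3% and 19.4% in the WT mice and 16.8%, 19.8% and 10.3% in the SIRT7-/- mice (WT 30.4% ± 20.05, SIRT7-/- 15.6% ± 4.86, SD, n = 3 each, exact permutation p = 0.3). That difference, -14.8 percentage points, was -3.26 without WT mouse 1 and -3.67 under the stricter plasma rule.

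Gene by gene, no V gene passed the test between genotypes in the mean over mice. In plasma cells, 48 of the 91 V genes averaged at least 0.05 CP10K and were tested together with all other genes, and 0 of the 48 passed limma's test at an adjusted p under 0.05 (smallest adjusted p = 0.537), where 0.0542% of all 7377 genes tested did so (4 genes). At an unadjusted p under 0.05 there were 10 V genes and 321 of all genes. The median difference was 0.56 on the log2 scale for the V genes and 0.11 for all genes, with 30 of 48 and 4265 of 7377 above 0. Among the 48 were 11 genes at 0 in all mice of a genotype (9 of them in WT), and with these set to the bound that 3 counts over the genotype give, the median stayed at 0.56. A gene passed the minimum through any mouse, so these counts do not describe all members. Ighv5-17 had the smallest p, at 0, 0 and 0 CP10K in the WT mice and 0.362, 0.180 and 0.0955 in the SIRT7-/- mice. Igkv7-33, at 0 in 5 mice, and Ighv2-2 both had an adjusted p of 0.998, and their levels came from a single animal but for 2 UMIs. Leaving out a library made a few calls. Igkv16-104, at 0, 0 and 0.189 CP10K in the WT mice and 0.169, 0.115 and 2.61 in the SIRT7-/- mice, passed without SIRT7-/- mouse 1 or 2, and Ighv2-5 and Igkv6-25 passed without SIRT7-/- mouse 3, where both were at 0. Calls over all genes rose as well, to 34 of 7229, 9 of 7176 and 33 of 7571 without SIRT7-/- mice 1, 2 and 3. The V genes tested in these fits numbered 40, 44 and 47. In B cells, 18 V genes were tested in 3 WT and 2 SIRT7-/- mice and 0 passed, where 0.582% of 9800 genes did so (57 genes). At an unadjusted p under 0.05 there were 2 of the 18 V genes and 547 of the 9800 genes.

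The constant region genes and the genes of antibody production were compared in the same test. Of 12 constant genes, 11 were tested in plasma cells and 0 passed (2 at an unadjusted p under 0.05). Ighm was at 285.7, 716.2 and 446.3 CP10K in the WT mice and 57.3, 8.90 and 6.73 in the SIRT7-/- mice, which did not overlap, with an adjusted p of 0.889. Ighg2b was at 114.4, 194.5 and 73.6 CP10K in WT and 41.4, 32.0 and 54.9 in SIRT7-/- mice (adjusted p = 0.139), again without overlap. Igha was at 1149.8, 411.0 and 805.6 against 828.4, 1296.3 and 1298.2 CP10K (adjusted p = 0.998). Of 23 genes of plasma cell identity, secretion and V gene assembly, 19 were in the table and 17 were tested, and 0 passed (2 at an unadjusted p under 0.05). Xbp1 was between 6.54 and 10.5 CP10K in the 6 mice, and Tnfrsf17 at 0.897, 1.52 and 1.54 in WT and 2.72, 3.23 and 1.34 in SIRT7-/- mice (adjusted p = 0.998). In B cells, 11 constant genes were tested, of which Ighg2b passed as higher (0, 0.384 and 0.315 CP10K in WT and 9.36 and 19.1 in SIRT7-/- mice) and Ighd as lower (7.85, 11.1 and 4.10 against 2.05 and 2.08 CP10K, limma adjusted p = 0.0104). B cells with 100 or more constant region UMIs numbered 0, 1 and 21 in WT mice 1, 2 and 3 and 23 and 13 in SIRT7-/- mice 1 and 2. Their part in these 2 calls was not tested, and doublets were not called. The Ighg2b direction was opposite to that in plasma cells. None of 18 genes of the antibody production list passed in B cells, and 1 had an unadjusted p under 0.05, against 547 of all 9800 genes. For V gene assembly, Vpreb1 was at 0 in plasma cells of all 6 mice and Dntt at most 0.0846 CP10K.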

How the data were processed

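The deposited table held 11610 cells by 16623 genes as natural log values, ln(CP10K + 1), which the authors made from reads aligned to mm10 with Cell Ranger 6.0.0 (per the submitters' processing notes), keeping cells with at least 500 genes. UMIs were recovered by dividing each cell's values, after undoing the log, by its smallest step, and all 12961041 values above 0 came out whole within 0.02. Cells were classed by the marker rules in the text, and doublets were not called. One gene of the B cell marker list is not reported here. Members and lists were chosen with earlier results of these data known. Named genes were the 8 Ighv (at least 2 UMIs, since 5 left no WT mouse with 5 cells) and 10 light chain genes with the highest mean share of assigned plasma cells, all Iglv genes, and listed constant and pathway genes. Values were compared over mice with exact permutation and sign-flip tests (two-sided, 5 or more cells per mouse). Genes were compared with limma 3.58.1 (R 4.3.3, trend and robust) on log2(mean CP10K + 0.05) in mice with 10 or more cells, with Benjamini-Hochberg adjustment. The test was tried on simulated data. Each replicate is a separate mouse. Coordinates are GENCODE M21, GRCm38. Alternatives are given in the closing section.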

Additional observations from a re-analysis of the deposited data

Results flagged for a closer look

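Cells outside the plasma, B and macrophage classes held 417 V gene UMIs, which was 0.00254% of their UMIs against 0.000189% in macrophages. These were found in 61 of 7783 cells, and 29 of the cells had 5 or more V UMIs. There were 45 cells of this kind with 100 or more constant region UMIs. By mouse the V UMIs numbered 1, 1 and 73 in WT mice 1, 2 and 3 and 149, 192 and 1 in SIRT7-/- mice 1, 2 and 3.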

How the results depend on the processing

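Of 246 alternatives computed over 20 values, 217 kept the direction of the mean and the side of the threshold (p of 0.05). With 3 against 3 mice no p under 0.1 is possible, and with 5 mice none under 0.0625. In the permutation tests by genotype and of plasma against B cells, only the direction could therefore change. Leaving out 1 mouse at a time kept plasma cells above macrophages, at 0.224 to 0.267 percentage points, where 5 mice cannot give a p under 0.0625. As a share of V and constant UMIs the excess over macrophages was 0.242 percentage points (5 mice, exact sign-flip p = 0.125) and that over B cells 0.0661 (exact sign-flip p = 0.375). Without thinning, the difference in V genes per cell was -0.124. The light chain top share lay between -0.370 and 4.38 percentage points with 1 mouse left out, and was -0.389 under the stricter plasma rule. The kappa top share lay between -1.75 and 5.81, was -0.443 under the stricter rule and -7.36 with at least 10 UMIs. The kappa same-gene chance lay between -0.151 and 10.4, and the Iglv share between -0.0324 and 0.0118. By genotype, the V share lay between 0.00586 and 0.103 and V genes per cell between 0.00921 and 0.420. The lambda share lay between -24.3 and -8.67, and the light same-gene chance between -20.9 and -3.26. With an assigned gene over 80%, the light same-gene chance was 7.94 and the lambda share 3.97 percentage points higher in SIRT7-/- mice. With at least 2 UMIs, the heavy top share was -10.7 and the heavy same-gene chance 11.6 percentage points, with 1 WT and 2 SIRT7-/- mice and no test. With 1 mouse left out, 0 to 2 V genes passed in plasma cells and 0 in B cells, namely Igkv16-104 without SIRT7-/- mouse 1 or 2, and Ighv2-5 and Igkv6-25 without mouse 3. Over all genes in plasma cells, 34 of 7229, 9 of 7176 and 33 of 7571 passed without SIRT7-/- mice 1, 2 and 3. Scaled to UMIs outside immunoglobulin genes, 1 passed (Igkv16-104). The log2 difference of Iglv1 lay between -0.36 and 0.15 with 1 mouse left out and was 0.45 in mice with at least 20 cells. In plasma cells, the deviations of same-numbered mice from their genotype means had correlations of 0.0151, -0.0764 and -0.105. No such value was computed for B cells, and whether same-numbered mice shared a preparation was not tested. The replicate block gave 0 V genes in plasma cells and 1, Iglv1, in B cells, where calls over all genes went from 57 to 170. Over all genes in plasma cells the count went from 4 to 8 with the block, 13 with a pseudocount of 0.5, 12 without a filter, 42 on the mean of the log values and 40 when scaled outside immunoglobulin genes.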
